A study of Mus musculus with 6 samples.

Results

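T cells of the mouse aorta were examined in single-cell RNA sequencing libraries. A barcode was counted as a T cell if it held at least 3 UMIs (unique molecular identifiers, each standing for 1 captured RNA molecule) of Cd3e, Cd3d, Cd3g, Trac and Trbc2 together. It also had to hold no UMI of the B cell genes Cd79a and Ms4a1, at most 3 UMIs of the macrophage genes C1qa, C1qb and C1qc, and under 1.5% of its UMIs from the smooth muscle genes Acta2, Tagln, Myh11 and Cnn1. This rule found 740 T cells among 53983 kept barcodes, which are those where 500 or more genes were detected and no more than 20% of UMIs were mitochondrial, out of 60871 barcodes in all. The members were thus chosen by their own measured UMIs, so the levels of the rule genes describe the choice and are not a finding.

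The series holds aortic tissue from 3 samples of mice with the genotype Best3FL/FL, a floxed Best3 gene, named CON, and from 3 samples of mice labelled Best3SMKO, named KD. Best3 encodes bestrophin 3, a chloride channel family protein, and the series title asks about vascular smooth muscle cells in aortic disease. No age, sex, strain, treatment or Cre driver is given in the labels, which also do not say whether animals were pooled. Visible clots were rinsed off before dissociation for 10x droplets, so T cells of the wall, of any tissue left around it and of remaining blood are not separated. The barcodes carry 6 suffixes that match no sample label, and libraries 1 to 6 are named after them. No T cell could therefore be tied to CON or KD, and no value below compares the genotypes or carries a p-value. Each library is 1 preparation, so intervals are exact 95% intervals (Clopper-Pearson for shares, Poisson for levels) that cover counting error only.

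T cells recognise antigen through a receptor of either alpha and beta or gamma and delta chains, which signals through the CD3 proteins. Cells with alpha-beta receptors carry the co-receptor CD8 or CD4, and CD8 cells are known for killing infected cells, while CD4 cells help other immune cells or, with the transcription factor FOXP3, restrain them. Gamma-delta T cells act early and without classical antigen presentation, and a subset that makes interleukin 17 settles in barrier and connective tissues before or soon after birth.

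The label was checked with Lck, the kinase that starts receptor signalling, which was the 1 fixed T cell marker that the rule did not use. Lck was found in 45.0% of T cells, at 306, 120, 188, 165, 217 and 167 CPM (UMIs per 1e6 UMIs) in libraries 1 to 6, against 1.28 CPM in all other kept barcodes. All 6 libraries lay far above that level. Among the 155 members with a UMI of Trdc, the delta constant gene, and none of Trac, Lck was detected in only 4 (2.58%). The check therefore says little about the label of that group. At the edge of the rule, Lck was detected in 34.8% of the 66 T cells with exactly 3 UMIs of the rule genes and in 13.9% of the 72 barcodes with 2, which were left out. The smooth muscle limit left out a further 77 barcodes, 59 of them in library 5, with Lck in 51.9% and a median of 3.07% smooth muscle UMIs. In the smooth muscle gate, a set of barcodes that should lack T cell genes, the 5 rule genes were summed. They reached 0.484 to 1.76 CPM in libraries 1, 2, 3, 4 and 6 and 6.39 CPM in library 5. Whether these UMIs came from free RNA or from doublets was not tested.

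A minority of the members lacked the CD3 transcripts. Of the 740, 49 (6.62%) held no UMI of Cd3e, Cd3d or Cd3g, and 43 of these entered through Trbc2, a beta chain constant gene, alone. They made up 21 of 480 members in library 5 and 28 of 260 in the other 5 libraries. Il1rl1, the receptor for IL-33, was detected in 29 of the 49. Lymphocytes without a receptor, such as innate lymphoid and natural killer cells, can carry transcripts of unrearranged receptor genes, so the label T cell is not shown by the rule for these 49 barcodes.

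Other cell types left a measurable trace. Of the 740 T cells, 75 took at least 1% of their UMIs from the fibroblast, endothelial or epithelial lists, 59 of them in library 5, and 49 of the 75 were called doublets by Scrublet. Fibroblast genes summed to 7776 CPM in T cells of library 5 and 4447 CPM in the other 5 libraries together, and epithelial genes to 2056 and 34.0 CPM. The B cell list summed to 657 CPM in library 5 and 395 CPM elsewhere, with Igkc, an immunoglobulin light chain, at 306 and 34.0 CPM, and 4 of its 12 genes, 2 of them barred by the rule, had no UMI. The dendritic and monocyte list summed to 991 and 847 CPM, with Flt3 and Cd209a without a UMI. Of the neutrophil, mast cell and erythroid lists, which summed to 16.0, 21.6 and 22.9 CPM over all T cells, Ly6g, Ms4a2 and Alas2 had no UMI. No T cell shared its barcode sequence with a T cell of another library.

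Library 5 held most of the T cells. The libraries contained 63, 40, 41, 86, 480 and 30 T cells in order, which is 0.679%, 0.547%, 0.694%, 0.912%, 3.07% and 0.469% of their kept barcodes. The share in library 5 had an interval of 2.80% to 3.35%, and the other 5 libraries together, with 260 of 38323 kept barcodes, had 0.678% with an interval of 0.599% to 0.766%. Library 5 thus lay above the highest of the others, and libraries 1 to 4 and 6 lay within a factor of 2 of one another. T cells of library 5 were also shallower, with a median of 2871 UMIs and 1467 genes, against medians of 4278 to 5350 UMIs in the other libraries. Library 5 stood apart in share, in depth and in the level of the rule genes in the smooth muscle gate. The plan had set library 5 apart beforehand, and values are given for library 5 and for the other 5 libraries separately from here on. Whether it came from a CON or a KD sample is not known.

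**Figure D1:**
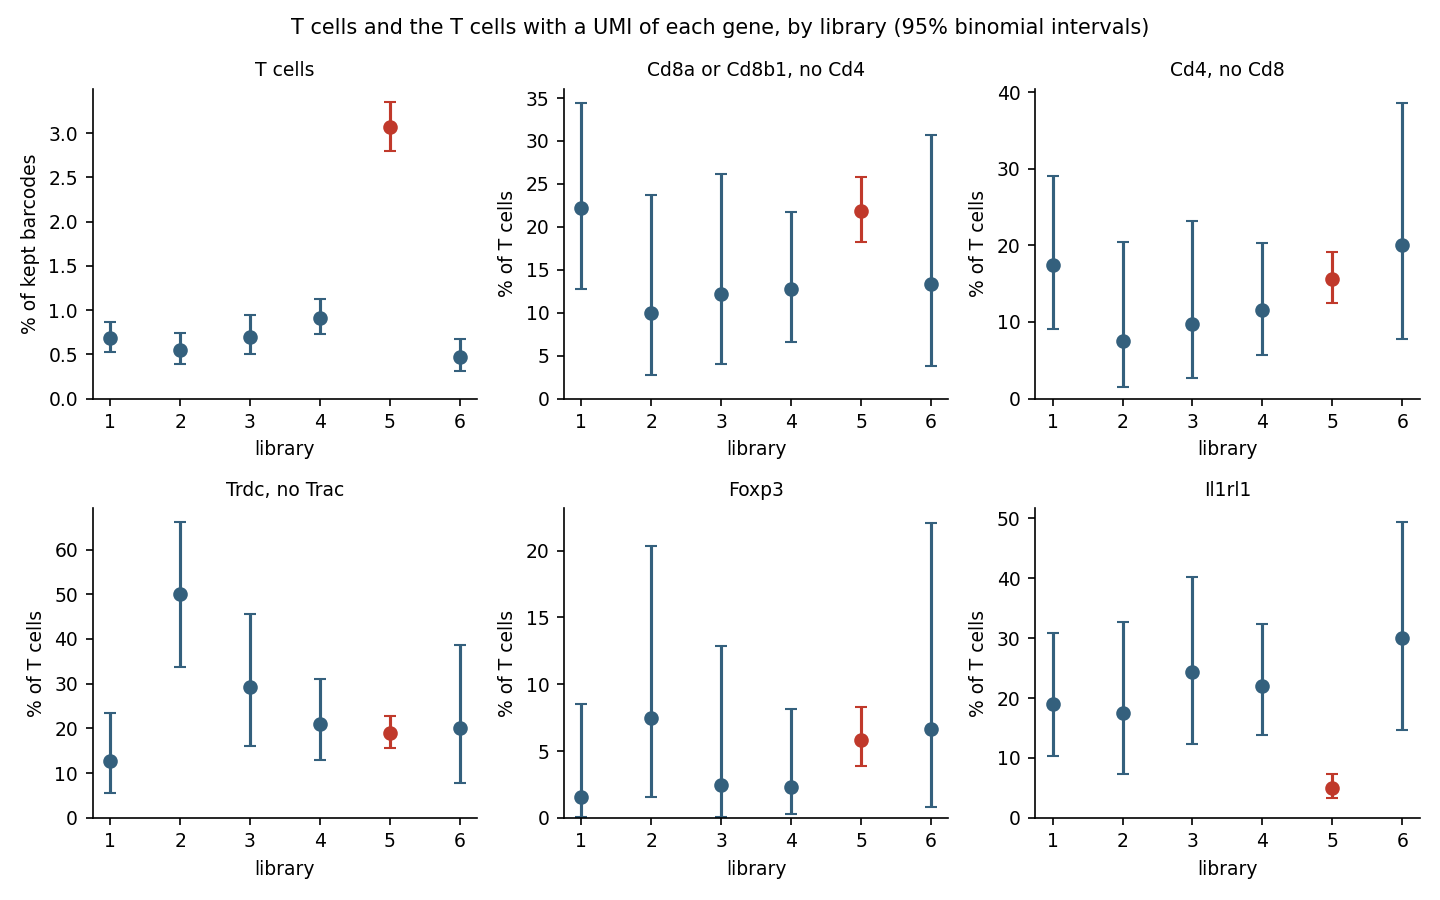
T cells as a percentage of kept barcodes, and T cells with a UMI of the named genes as a percentage of all T cells, in libraries 1 to 6; points are shares and bars exact 95% binomial intervals, with library 5 in red. Library 5 stands apart at 3.07% T cells and at 5.0% Il1rl1-positive T cells, and library 2 has the highest share with Trdc, 50%.

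As a description of what the rule selected, the receptor complex and its signalling machinery were carried together. With 10 CPM added to both sides, 1038 of 10657 genes (9.74%) reached at least 2 times the level of the other kept barcodes in total and were higher in all 6 libraries, and 1216 (11.4%) were as much lower. Of the 26 receptor signalling genes 25 were among the former, including the phosphatase gene Ptprc (889 CPM) and the adaptor genes Lat (368 CPM) and Fyb (348 CPM). All 12 pan-T surface genes were as well, with Icos, a costimulatory receptor, at 545 CPM and Thy1 at 416 CPM. Since the rule chose these cells by related genes, nothing is read from these counts.

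Outside the rule genes and marker lists, the genes with the largest ratios were those of lymphocytes. They were Ms4a4b (594 CPM), Gimap3 (460 CPM), Ptprcap (467 CPM), Vps37b (1292 CPM), Ramp3 (360 CPM), Sh2d2a (249 CPM), Rac2 (652 CPM), Emb (1252 CPM), P2ry10 (289 CPM) and Hcst (235 CPM). Ptprcap encodes a protein bound to the CD45 phosphatase, and Gimap3 belongs to a family of GTPases of lymphocytes.

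Cytokine and homing receptor genes known from tissue and from recirculating T cells were both detected. Il7r, the receptor for the survival cytokine IL-7, stood at 894, 1770, 1523, 978, 658 and 1544 CPM in libraries 1 to 6, lowest in library 5. Rora, a nuclear receptor of type 2 and type 17 lymphocytes, stood at 710 CPM over all T cells, and Cxcr6, a chemokine receptor of tissue-resident lymphocytes, at 496 CPM in 51.9% of T cells. Itgae, the integrin chain of T cells in epithelia, and Zfp683, a residence factor, were close to absent, with 26 and 2 UMIs in 740 cells. Ccr7, which guides naive T cells to lymph nodes, was found in 17.3% of T cells in library 5 and 10.8% in the other 5 libraries. With cells thinned to 1000 UMIs these shares were 8.97% (interval 6.54% to 11.9%) and 5.02% (2.70% to 8.43%), and the intervals overlapped. In summed values Ccr7 stood at 126 CPM in library 5 and 44.1 to 67.6 CPM in the other libraries, and it passed the rule of size for genes higher in library 5.

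Among the cytokines, most were sparse. Areg, an EGF family ligand, was found in 97 T cells, and Tnfsf8 and Tnfsf11, ligands of the TNF family, in 90 and 187. Il17a was found in 62, Ifng in 81, and Il3 and Il22 in none of 740, which allows at most 0.405% of T cells with a UMI (3 counts). Il4 and Il10 were found in 14 and 8 T cells. At a median of 3718 UMIs per T cell, a cytokine without a UMI may still be expressed.

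The co-receptor genes split the T cells, though most showed none. A cell was put in the CD8 gate if it held a UMI of Cd8a or Cd8b1 and none of Cd4, and in the CD4 gate in the opposite case. The CD8 gate took 14 of 63, 4 of 40, 5 of 41, 11 of 86, 105 of 480 and 4 of 30 T cells in libraries 1 to 6, and the CD4 gate 11, 3, 4, 10, 75 and 6. In library 5 this was 21.9% (18.3% to 25.8%) CD8 and 15.6% (12.5% to 19.2%) CD4, and in the other 5 libraries 14.6% (10.6% to 19.5%) and 13.1%. These intervals overlapped. Only 5 of 740 T cells held both, and 62.1% in library 5 and 71.2% elsewhere held neither, so both shares are lower limits. The same gates took 0.211% and 0.159% of the smooth muscle gate, whose median depth was 11736.5 UMIs. Thinned to 1000 UMIs, CD8 shares were 14.7% (11.7% to 18.3%) in library 5 and 8.11% (5.09% to 12.1%) elsewhere, and CD4 shares 6.20% and 3.47%.

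CD8-gated T cells carried a killing program. Of 7556 genes tested, the gate genes among them, 143 (1.89%) were at least 2 times as high in CD8-gated as in CD4-gated cells. The gates held 143 and 109 cells, 10 CPM was added to both sides, and 251 genes (3.32%) were lower by as much. Only library 5 had 20 cells in both gates, so it alone had to show the direction, and 134 and 234 of these genes pointed the same way in the other 5 libraries together. Of the 17 cytotoxic genes 14 were higher, with a median log2 ratio of 2.01, against −0.03 over all genes tested. Without library 5, and with no library required to show the direction, the first count was 256 in place of 143.

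The leading CD8-gate genes were effector genes. Ccl5, a chemokine stored by killer lymphocytes, was at 5262 CPM in CD8-gated cells of library 5 and 8087 CPM in those of the other 5 libraries, and in CD4-gated cells at 636 and 405 CPM. Gzmb, a granzyme that enters target cells, was at 188 and 362 CPM, against 31.9 and 0 CPM. Both genes were higher in the CD8 gate on either side, with no overlap of the 4 values. Eomes, a transcription factor of memory killer cells, had 148 UMIs in the CD8 gate (209 CPM, 177 to 245) and none in the CD4 gate, where a count of 0 allows up to 5.80 CPM. The killer receptor genes Klrk1 (222 against 13.5 CPM) and Klre1 (64.9 against 0 CPM), the chemokine genes Xcl1 (141 against 7.73 CPM) and Ccl4 (288 against 27.0 CPM), and Ly6c2 (391 against 13.5 CPM), a surface marker of memory cells, went the same way. The 2 cytotoxic-list genes lower in the CD8 gate were Klrg1, a receptor also found on regulatory cells (16.9 against 48.3 CPM), and Srgn, a granule proteoglycan (818 against 1737 CPM).

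CD4-gated T cells carried regulatory and helper genes. Of 11 regulatory T genes tested 9 were higher there (median log2 ratio of CD8 to CD4 −2.31), as were 6 of 9 cytokines and 5 of 8 tissue residence genes. Tnfrsf4, the costimulatory receptor OX40, had 261 UMIs in the CD4 gate (504 CPM, 445 to 569) and none in the CD8 gate, where a count of 0 allows up to 4.23 CPM. Tnfsf8, the ligand of CD30, stood at 394 against 19.8 CPM, Tnfsf11, which encodes RANKL, at 172 against 4.23 CPM, and Il2ra, the high-affinity chain of the IL-2 receptor, at 131 against 2.82 CPM. Il1rl1 had 128 against 0 CPM, Areg 253 against 4.23 CPM, Sostdc1 126 against 1.41 CPM, Cxcl10 265 against 22.6 CPM and Foxp3 79.2 against 0 CPM. None of the 26 receptor signalling genes differed by this rule between the gates, with Lck at 317 and 290 CPM in the CD8 and CD4 gates. Over all genes only 1.89% and 3.32% were called, so a count of 0 among 26 is near these shares. In the CD4 gate Areg stood at 46.4 CPM in library 5 and 665 CPM in the other 5 libraries, a difference taken up with the type 2 genes.

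Foxp3 marked few cells. It was detected in 1, 3, 1, 2, 28 and 2 T cells of libraries 1 to 6, which is 5.83% in library 5 and 3.46% in the other 5 libraries, against 0.0529% of the smooth muscle gate. Of the 37 cells, Ikzf2, which encodes the factor Helios, was detected in 36, Ctla4, an inhibitory receptor, in 31, Tnfrsf4 in 29, Tnfrsf18 in 27 and Il2ra in 20. Klrg1 was detected in 17, Gata3, the type 2 master factor, in 17, Il1rl1 in 16 and Areg in 15, genes known together from regulatory T cells of tissues. Il17a was detected in none of the 37, which allows at most 8.11% with a UMI. The 37 include 5 cells of library 5 from a cluster led by airway epithelial genes. Without that cluster, Foxp3 was detected in 23 of 474 T cells of library 5 (4.85%, 3.1% to 7.19%), and of the 32 cells left Ikzf2 was detected in 31, Ctla4 in 29, Tnfrsf4 in 27 and Il1rl1 in 13.

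T cells with the delta chain formed a large group. A cell was put in the Trdc gate if it held a UMI of Trdc, the delta constant gene, and none of Trac, the alpha constant gene, and in the Trac gate in the opposite case. The Trdc gate took 8 of 63, 20 of 40, 12 of 41, 18 of 86, 91 of 480 and 6 of 30 T cells in libraries 1 to 6. Library 2 was highest at 50%, and library 5, at 19% (15.5% to 22.8%), lay among the others, which had 24.6% together (19.5% to 30.3%). Thinned shares were 19.4% and 23.2%. In the smooth muscle gate the share was 0.132%. Because a cell without Trac UMIs needed more UMIs of the CD3 genes to be chosen, Cd3g, at 1593 CPM in the Trdc gate and 705 CPM in the Trac gate, is not compared further.

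Variable segments of the receptor were captured in few cells, and gamma and delta segments more often than alpha and beta segments. Trdv4, a delta segment, had 178 UMIs in 93 T cells, Trgv2 had 55 UMIs in 39, and Tcrg-V6, a gamma segment, had 30 UMIs in 25. The pair of Tcrg-V6 and Trdv4 is known from mouse gamma-delta T cells that make interleukin 17. The last 200 bases of the second exon of these segments in GRCm38 (GENCODE M21) are shown so that the segments can be compared. Capitals mark the in-frame tyrosine and cysteine codons near the end of each segment. Tcrg-V6 lies at chr13:19190730-19190929 on the plus strand, Trgv2 at chr13:19336573-19336772 on the minus strand and Trdv4 at chr14:54075316-54075515 on the plus strand.
Tcrg-V6: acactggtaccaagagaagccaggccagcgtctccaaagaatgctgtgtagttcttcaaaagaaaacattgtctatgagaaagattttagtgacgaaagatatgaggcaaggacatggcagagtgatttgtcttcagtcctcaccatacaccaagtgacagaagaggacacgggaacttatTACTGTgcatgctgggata
Trgv2: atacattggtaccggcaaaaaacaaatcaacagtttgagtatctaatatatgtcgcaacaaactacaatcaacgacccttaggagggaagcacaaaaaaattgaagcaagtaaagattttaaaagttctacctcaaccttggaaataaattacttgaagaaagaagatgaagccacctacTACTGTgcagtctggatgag
Trdv4: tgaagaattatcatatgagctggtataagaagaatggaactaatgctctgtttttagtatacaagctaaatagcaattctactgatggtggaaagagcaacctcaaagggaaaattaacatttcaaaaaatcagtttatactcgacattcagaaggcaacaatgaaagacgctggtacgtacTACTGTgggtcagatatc

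Over these bases, Tcrg-V6 was at most 57.0% identical to any other gamma segment compared, so reads of it are distinct. Trgv2 was 95.4% identical to Tcrg-V1 and 94.5% to Tcrg-V3, so its counts may include reads of these copies and are uncertain. Trdv4 stood at 50, 181, 87.2, 60.1, 39.5 and 33.4 CPM in T cells of libraries 1 to 6, highest in library 2, which also held the highest share of the Trdc gate. Of the 25 cells with Tcrg-V6, 16 also held Trdv4, 25 held Cd163l1 and 9 held Il17a. Alpha segments were nearly silent in this kind of library, with 47 UMIs over 24 of 128 Trav segments, and beta segments had 31 UMIs over 13 of 35 Trbv segments. No clone can be read from these counts.

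Most genes of the type 17 and innate-like list were higher in Trdc-gated cells. With the gate gene left out, 12 of 15 type 17 and innate-like genes were higher in the 155 Trdc-gated cells than in the 355 Trac-gated cells and 1 was lower, with a median log2 ratio of 2.66 against −0.01 over all 9523 genes tested. The 12 include the gamma constant genes Tcrg-C1, Tcrg-C2 and Tcrg-C4. A gate on the delta chain favours cells with these genes, so they are not evidence of a type 17 program. Over all genes, 329 (3.45%) were higher and 404 (4.24%) were lower. Library 5 alone had to show the direction, and 328 of the 329 and 372 of the 404 pointed the same way in the other 5 libraries together.

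Cd163l1, a scavenger receptor gene of gamma-delta T cells, was detected in 147 of 155 Trdc-gated cells (94.8%, 90.1% to 97.7%) and in 2 of 355 Trac-gated cells (0.563%). Its level was 1601 CPM in library 5 and 1283 CPM in the other 5 libraries, against 0.973 and 6.70 CPM in the Trac gate. Tcrg-C1, a gamma constant gene, was found in 130 of the 155 and Blk, a kinase of the same family as Lck, in 104. Blk stood at 405 CPM in the Trdc gate and 13.5 CPM in the Trac gate. Trdv4 was found in 74 of the 155 and in none of the 355, and Tcrg-V6 in 24 and none, where a count of 0 allows at most 0.845%.

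Regulators and cytokine receptors of the type 17 and innate-like list followed. Sox13, a factor of gamma-delta T cell development, was at 90.5 against 4.31 CPM. Il1r1 (278 against 32.6 CPM) and Il23r (127 against 11.7 CPM) encode receptors for the cytokines that induce interleukin 17. Il17a itself was found in 38 of 155 Trdc-gated cells (24.5%, 18.0% to 32.1%) and in 12 of 355 Trac-gated cells (3.38%, 1.76% to 5.83%). Of all 62 T cells with Il17a, Cd163l1 was detected in 45, Cxcr6 in 55 and Trac in 19, so not every Il17a-positive cell belonged to the Trdc gate. Other leading genes were Clnk (119 against 3.69 CPM) and Pik3ap1 (121 against 6.77 CPM), which encode adaptors, Mtcl1 (98.9 against 2.46 CPM), Actn2 (424 against 43.7 CPM) and Il17re (176 against 19.7 CPM). The 1 lower gene of the list was Slamf1, a lymphocyte adhesion receptor (11.7 against 61.6 CPM).

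**Figure D2:**
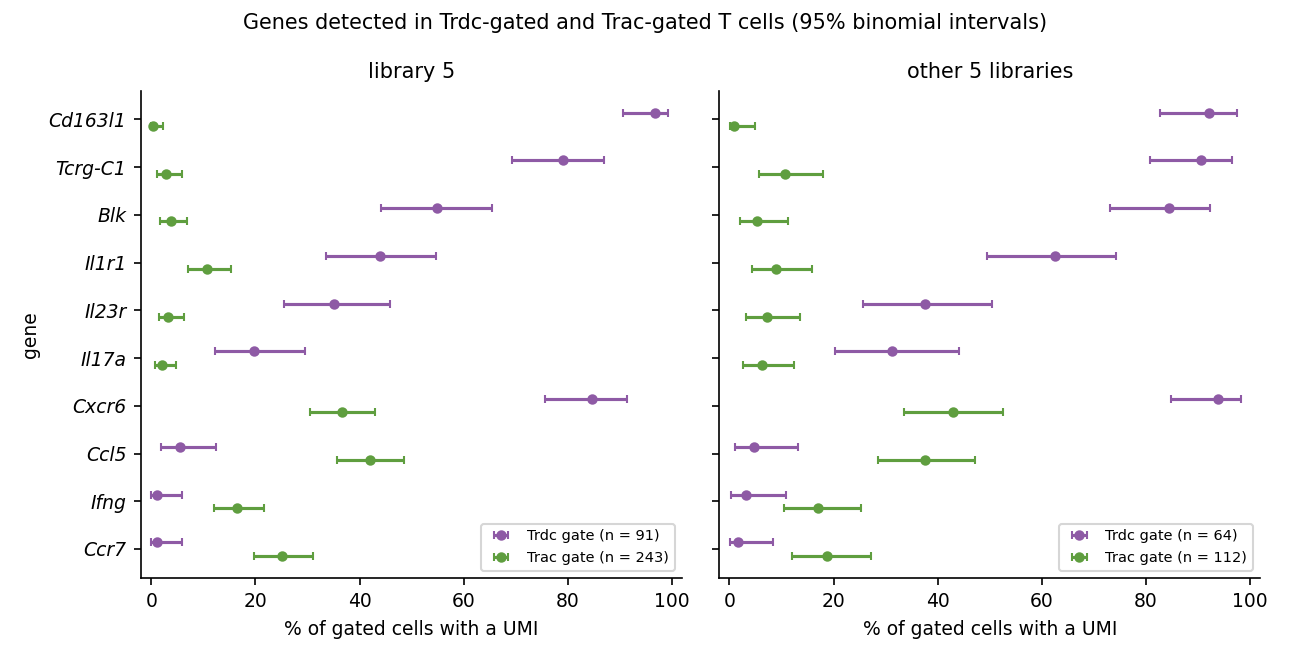
Percentage of Trdc-gated and Trac-gated T cells with a UMI of each gene, in library 5 (left) and in the other 5 libraries together (right), with exact 95% binomial intervals. Cd163l1 lies above 90% in the Trdc gate on both sides and below 1% in the Trac gate, while Ccl5, Ifng and Ccr7 are more often detected in the Trac gate.

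The same cells were low in several genes of the receptor cascade. Lck was at 13.0 CPM in the Trdc gate of library 5 and 16.4 CPM in that of the other 5 libraries, against 274 and 355 CPM in the Trac gate. Fyb, an adaptor gene, stood at 34.7 and 43.7 CPM against 435 and 544 CPM. Themis, known from the selection of alpha-beta T cells in the thymus, had no UMI among the 596891 UMIs of the gate, which allows at most 5.03 CPM, against 83.1 CPM. The low and high values did not overlap for these 3 genes.

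Surface receptors of conventional T cells followed them. Cd28, the main costimulatory receptor, was at 16.8 against 453 CPM, Cd2 at 21.8 against 291 CPM, Cd5 at 23.5 against 178 CPM, Cd6 at 10.1 against 230.2 CPM and Cd27 at 33.5 against 223 CPM. Other members of the cascade were not low by the same rule. Lat was at 521 against 364 CPM, and Zap70, the kinase that follows Lck, at 226 against 127 CPM. In the list of 26 signalling genes 5 were lower, the others being Skap1, an adaptor gene (146 against 311 CPM), and Ubash3a, a regulator of receptor signalling (3.35 against 114 CPM). The 2 higher ones were Rasgrp1, an activator of Ras (265 against 111 CPM), and Ptpn6, the phosphatase SHP-1 (147 against 54.2 CPM). In the pan-T surface list 5 of 12 were lower and none was higher. Lck was detected in 4 of 155 Trdc-gated cells (2.58%, 0.708% to 6.48%) and in 234 of 355 Trac-gated cells (65.9%, 60.7% to 70.8%), at median depths of 3374 and 3758 UMIs. The comparison of these gates was chosen after values had been seen.

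Naive, recirculating and cytotoxic genes were mostly lower in the same gate, and the tissue residence list was not shifted as a whole, with 1 of 9 genes tested higher, 1 lower and a median log2 ratio of −0.27. Cxcr6, the higher one, was at 1275 and 999 CPM in library 5 and the other 5 libraries, against 295 and 263 CPM in the Trac gate, and Il7r at 1826 and 1867 against 438 and 852 CPM. Of 12 naive and recirculating genes 8 were lower, among them Ccr7 (2 UMIs against 223) and Lef1, a factor of naive T cells (13.4 against 91.7 CPM). Of 17 cytotoxic genes 11 were lower, with Ccl5 at 335 against 3013 CPM and Nkg7, a granule protein gene, at 65.3 against 662 CPM. Ifng, the type 1 cytokine, was found in 3 of 155 against 59 of 355 cells. Tnfrsf4 had 2 UMIs against 390 and Ifi27l2a, an interferon-responsive gene, 30 against 1497. Cd8b1 had none, which allows at most 5.03 CPM, against 164 CPM. Ctla4 stood at 15.1 against 368 CPM.

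Airway genes were also among the largest differences of this comparison. Clca1 stood at 3.35 against 615 CPM, Bpifa1 at 55.3 against 1595, Wfdc2 at 15.1 against 482, Reg3g at 11.7 against 379 and Chil4 at 3.35 against 196 CPM. Epithelial genes summed to 157 CPM in the Trdc gate and 924 CPM in the Trac gate, and fibroblast genes to 2743 and 6188 CPM. In T cells these airway genes are nearly all from library 5, and Lck, Fyb, Themis, Cxcr6, Il7r and Cd163l1 pointed the same way in the other 5 libraries.

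**Figure D3:**
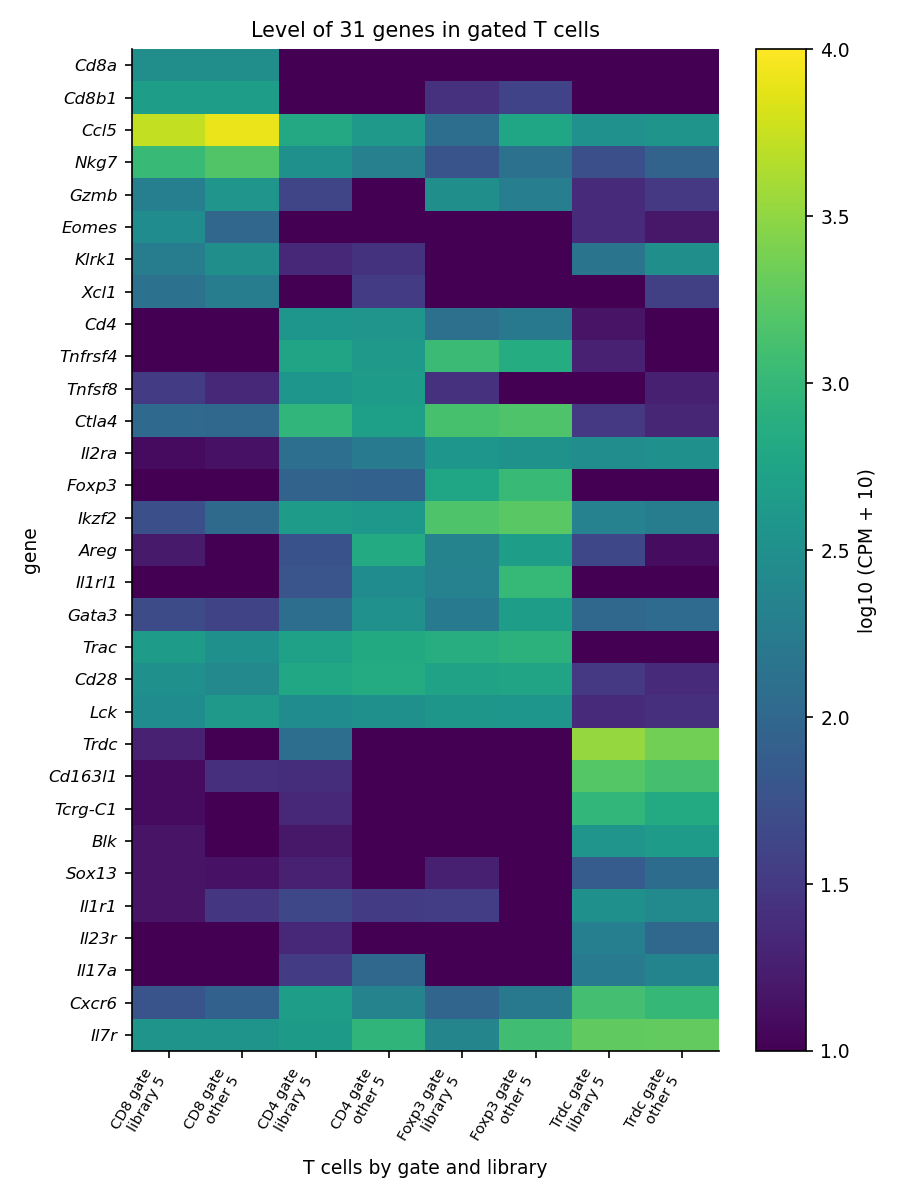
Level of 31 genes, as log10 of CPM plus 10, in T cells of the CD8, CD4, Foxp3 and Trdc gates, each for library 5 and for the other 5 libraries together. The blocks of CD8, regulatory and Trdc-gate genes appear on both sides, Lck and Cd28 are lowest in the Trdc gate, and within the CD4 gate Areg is lower in library 5 (46.4 CPM) than in the others (665 CPM).

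Genes of type 2 lymphocytes were the main group lower in library 5. Between T cells of library 5 and those of the other 5 libraries, 136 of 10657 genes (1.28%) were at least 2 times as high and higher than in each other library, and 35 (0.328%) were as much lower. Without library 4 the first count was 205. In values summed over cells, fewer cells of a kind and less RNA per cell cannot be told apart. The list of 9 group 2 innate lymphoid genes had 6 of the lower ones and a median log2 ratio of −1.39, against 0.02 over all genes tested. Areg, an EGF family ligand of tissue repair, stood at 626, 226, 427, 462, 43.5 and 388 CPM in libraries 1 to 6. Il1rl1 stood at 144, 201, 243, 197, 41.2 and 435 CPM, and Gata3 at 238, 176, 243, 338, 105 and 455 CPM. In all 3 genes library 5 was lowest and did not overlap the others. The summed list was not lower in library 5 in every gate. In the CD8 and Trdc gates it was 1.51 and 1.28 times the level of the other 5 libraries together. In the CD4 gate it was 0.469 times that level, with library 5 at 946 CPM and library 4 at 846 CPM.

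The type 2 cytokines Il5 and Il13 were part of this group, at 3.43 and 2.86 CPM in library 5 against 31.3 and 28.5 CPM in the other 5 libraries together. Il1rl1 was detected in 5.0% (3.23% to 7.35%) of T cells in library 5 and 21.9% (17% to 27.5%) elsewhere, and after thinning in 2.35% (1.18% to 4.17%) and 12.7% (8.94% to 17.4%). The intervals do not overlap at either depth. Of the 81 cells with Il1rl1, Gata3 was detected in 68, Il2ra in 61, Areg in 58, Klrg1 in 48, Trac in 38 and Foxp3 in 16, so both receptor-bearing and receptor-less lymphocytes may be among them.

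The difference was smaller, in the same direction, among members with CD3 transcripts. Among the members with a UMI of Cd3e, Cd3d or Cd3g, 19 of 459 in library 5 (4.14%, 2.51% to 6.39%) and 33 of 232 elsewhere (14.2%, 10.0% to 19.4%) held Il1rl1. In these cells Areg stood at 40.3 CPM in library 5 and at 131 to 573 CPM in the other libraries. Il1rl1 stood at 33.1 CPM, against 43.8 to 401 CPM, with library 4 close to library 5. Of the 8 genes of the list then tested, 3 were lower in library 5 (Areg, Il1rl1 and Gata3) in place of 6. Over all 740 members again, other genes with the largest ratios in this direction were Ccl1 (2.86 against 78.5 CPM), a chemokine, Cxcl2 (48.6 against 193 CPM), Slc7a8 (3.43 against 41.0 CPM), Ccdc184 (8.01 against 57.7 CPM), Dach2 (2.29 against 29.9 CPM) and the transcripts Gm42418, Gm20186 and Mir6236. Areg, Ccl1 and Gm20186 were among the leading genes of a cluster in which 25 of 32 cells held no CD3 transcript.

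Interferon-responsive genes were higher in library 5. Of the 14 genes of the list 13 passed the rule, with a median log2 ratio of 1.52, and library 5 was the highest of the 6 libraries for all 14. The list summed to 1032, 622, 523, 805, 2581 and 508 CPM in libraries 1 to 6, which is 3.40 times the level of the other 5 libraries together. Ifi27l2a stood at 350, 105, 138, 203, 920 and 127 CPM. Ifit1, an antiviral RNA sensor, stood at 8.82, 0, 0, 5.63, 84.1 and 0 CPM, and Isg15, a ubiquitin-like modifier, at 103, 55.2, 45.9, 101, 220 and 60.2 CPM. In none of these 3 genes did another library reach library 5.

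Regulators and effectors of the response were among them. Irf7, the factor that sustains type I interferon, stood at 113 CPM against 6.69 to 47.1 CPM in the other libraries. Bst2, which tethers virus particles, stood at 359 CPM against 70.2 to 130 CPM. The GTPase genes Igtp (140 CPM against 27.5 to 58.8 CPM), Iigp1 (108 against 13.8 to 45.1 CPM) and Gbp2 (105 against 22.9 to 55.2 CPM), known as targets of interferon gamma, were higher as well. Irf1, another target of interferon gamma, did not pass, at 160 CPM against 73.5 to 150 CPM.

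These genes are known to be switched on through interferon-stimulated response elements, so the 250 bases before the start site were searched for GAAANNGAAA on both strands (N is any base, and overlapping matches count). The RefSeq table (GRCm38.p6) held 10 of the 14 genes, and 7 of the 10 (70%) had a match, against 936 of 27025 genes in the table (3.46%). A match is a description of these letters and not a measured site. The bases before the start of Ifit1 (chr19:34640639-34640888, plus strand), Isg15 (chr4:156200819-156201068, minus strand) and Igtp (chr11:58199306-58199555, plus strand) are shown, with matches in capitals, as 2 antiviral genes and 1 GTPase gene that were higher in library 5.
Ifit1: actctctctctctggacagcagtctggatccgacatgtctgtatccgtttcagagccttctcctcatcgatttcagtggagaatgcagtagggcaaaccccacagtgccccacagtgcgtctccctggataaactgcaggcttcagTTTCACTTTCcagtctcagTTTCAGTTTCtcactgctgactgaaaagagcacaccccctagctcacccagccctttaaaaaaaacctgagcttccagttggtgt
Isg15: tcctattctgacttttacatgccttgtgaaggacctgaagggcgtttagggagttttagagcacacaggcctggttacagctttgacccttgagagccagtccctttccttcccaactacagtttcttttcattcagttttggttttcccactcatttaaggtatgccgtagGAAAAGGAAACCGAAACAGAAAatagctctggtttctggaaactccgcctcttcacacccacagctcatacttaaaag
Igtp: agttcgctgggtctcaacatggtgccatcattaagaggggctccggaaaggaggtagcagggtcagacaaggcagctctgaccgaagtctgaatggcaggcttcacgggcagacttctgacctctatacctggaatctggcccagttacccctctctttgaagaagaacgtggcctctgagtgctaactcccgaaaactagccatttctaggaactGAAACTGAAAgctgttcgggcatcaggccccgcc

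The difference was present in the 3 T cell gates examined. In the CD8 and CD4 gates 13 of the 14 genes, and in the Trdc gate all 14, were at a higher level in library 5 than in the other 5 libraries together. The summed list was 1.76, 3.65 and 3.81 times as high in these gates. It was also higher in library 5 in cells that are not T cells, by 2.58 times in the B cell gate, 2.06 in the macrophage gate, 2.05 in the smooth muscle gate, 2.41 in the fibroblast gate and 1.41 in the endothelial gate. Without barcodes holding at least 1% of UMIs of other lineages, the ratio in T cells was 3.66 and 13 genes passed. Without barcodes lacking CD3 transcripts, 13 genes passed as well. The list was thus higher in library 5 in T cells and in 5 other gates. The lower depth of its T cells moved with this difference, and its part was not tested.

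**Figure D4:**
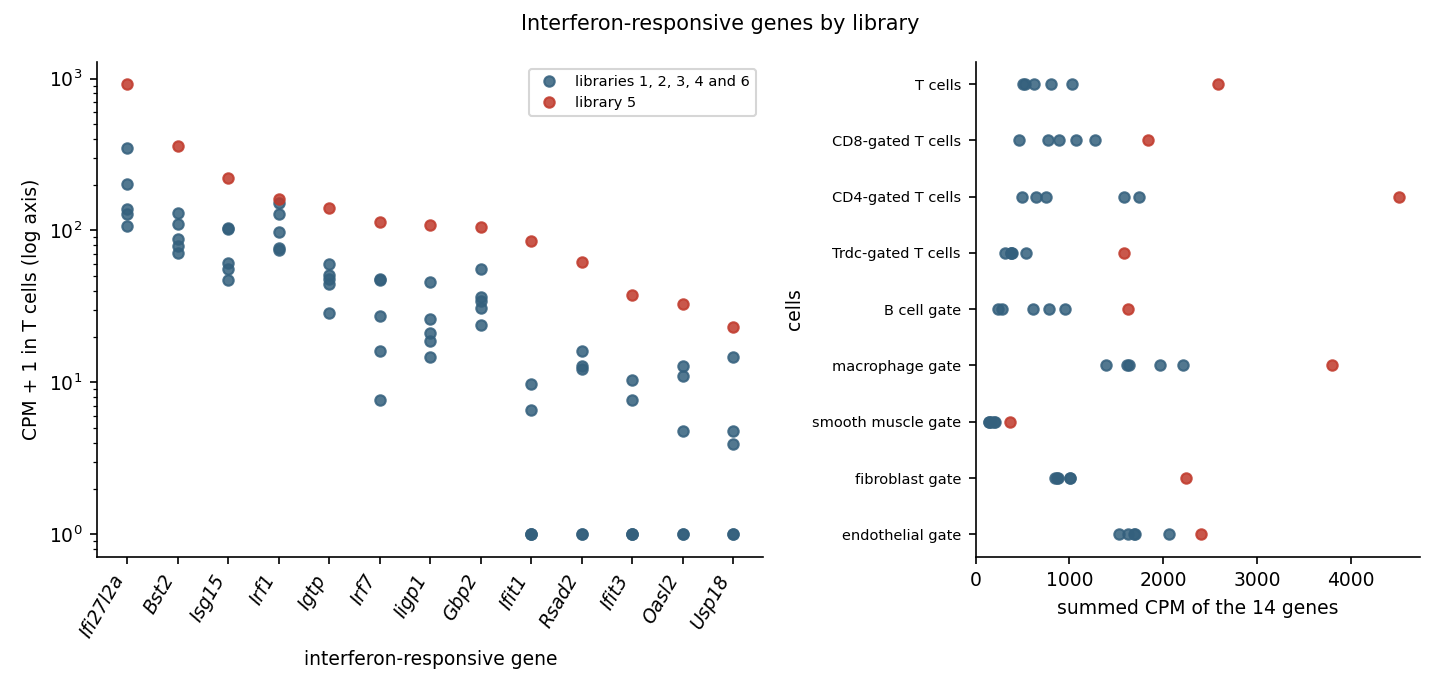
Left, 13 of the 14 interferon-responsive genes in T cells of each library as CPM plus 1 on a log axis; right, the summed CPM of all 14 in T cells, in gated T cells and in 5 other cell gates; each point is 1 library, with library 5 in red. Library 5 is the highest point for each of the 13 genes plotted and in each of the 9 groups of cells.

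Other lists held further genes that were higher in library 5, where 1.28% of all 10657 genes tested were. The dendritic and monocyte list had 4 of 7 tested (H2-Aa, H2-Ab1, Cd74 and Plac8), the natural killer list 3 of 10 (Eomes, Klra4 and Klra8), the regulatory T list 3 of 11 (Ctla4, Ikzf4 and Tnfrsf4) and the epithelial list 4 of 6. Cd74, the invariant chain of antigen presentation, stood at 124, 55.2, 32.1, 90.1, 193 and 53.5 CPM in libraries 1 to 6. Eomes stood at 44.1, 35.1, 13.8, 13.1, 109 and 13.4 CPM. Library 5 was highest for both. Without barcodes holding at least 1% of UMIs of other lineages, 4 of 7, 3 of 9, 4 of 11 and 1 of 3 genes tested passed in the same order. Fewer genes of the natural killer and epithelial lists were then tested.

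The 10 genes with the largest ratios in library 5 included secretoglobins and other secreted products known from airway epithelium. Scgb1a1, the club cell secretoglobin, stood at 1779 CPM and had no UMI in T cells of the other 5 libraries. Bpifa1 (1645 CPM), Clca1 (986 CPM), Reg3g (784 CPM), Chil4 (215 CPM), Ltf (184 CPM), Scgb3a2 (174 CPM) and Tff2 (152 CPM) had none there either, and Wfdc2 (672 CPM) and Scgb3a1 (508 CPM) had 3 and 1 UMIs. After the 75 barcodes with other lineages were left out, Scgb1a1 stood at 198 CPM, Bpifa1 at 146 CPM, Reg3g at 36.9 CPM and Clca1 at 21.1 CPM in library 5. Over all genes, 103 then passed in place of 136. The part of airway genes in the other results on library 5 was not tested beyond the values given without those barcodes.

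Clusters of the 740 T cells gave a finer description, with the limit that they were built on these same genes. Leiden clustering gave 14 clusters, of which 9 met the naming rule and 5 stayed unnamed. Clusters 2 and 8 (103 and 41 cells) were type 17 and gamma-delta T-like, with leading genes Trdc, Cd163l1, Tcrg-C1, Blk and Trdv4 in cluster 2 and Tnf, Cd163l1, Trdc, Nfkbid and Il17a in cluster 8. Cluster 4 (82 cells), led by Sdc1, Pxdc1, Ppp1r3b, Icos and Igf1r, met the same name with 3 of 10 markers and none among its 10 leading genes, and it held 31 Trac-gated beside 23 Trdc-gated cells, so it is called by its number. Cluster 1 (117 cells), CD8 T-like, was led by Ccl5, Nkg7, Eomes, Cd8b1 and Ms4a4b. Cluster 7 (50 cells), regulatory T-like, was led by Cxcl2, Foxp3, Tnfrsf4, Il1rl1 and Areg and held 24 of the 37 cells with Foxp3.

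Smaller clusters covered further lymphocytes. Cluster 10 (30 cells) was CD4 T-like, with Tbc1d4, Rgs16, Sostdc1, Slamf6 and Tnfsf8, cluster 11 (21 cells) was cycling-like, with Mki67, Top2a, Stmn1, Pclaf and Hist1h2ap, and cluster 13 (16 cells) was natural killer-like, with Gzma, Fcer1g, Tyrobp, Irf8 and Xcl1. Cluster 9 (32 cells) was group 2 innate lymphoid-like, with Calca, Hs3st1, Areg, Gm20186 and Nrgn. It held no UMI of Cd3e or Cd3d, Cd3g at 93.3 CPM and Trac in 1 cell, while Trbc2 stood at 918 CPM and all 32 cells held Il1rl1. In 25 of these 32 cells and in 8 of the 16 cells of cluster 13 no CD3 transcript was found, so the T cell label does not hold for cluster 9 by its markers.

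The unnamed clusters were 3 (86 cells, with Ccr7, Lef1 and Mal among its leading genes), 5 (76 cells, Ifitm1, Ctla4, Cd28, Tnfrsf4 and Cd5), 6 (61 cells, Dcn, Gsn, Col1a2, Serping1 and Serpinf1, fibroblast genes), 12 (19 cells, Fabp4, Ptprb, Aqp1, Cavin2 and Cd36, endothelial genes) and 14 (6 cells, Clca1, Bpifa1, Reg3g, Scgb1a1 and Wfdc2). Scrublet called 42 of the 61 cells of cluster 6 and 13 of the 19 of cluster 12 doublets. All 6 cells of cluster 14 came from library 5. At resolutions 0.4 and 1.2 there were 8 and 16 clusters, and at 0.4 no innate lymphoid cluster was separate.

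**Figure D5:**
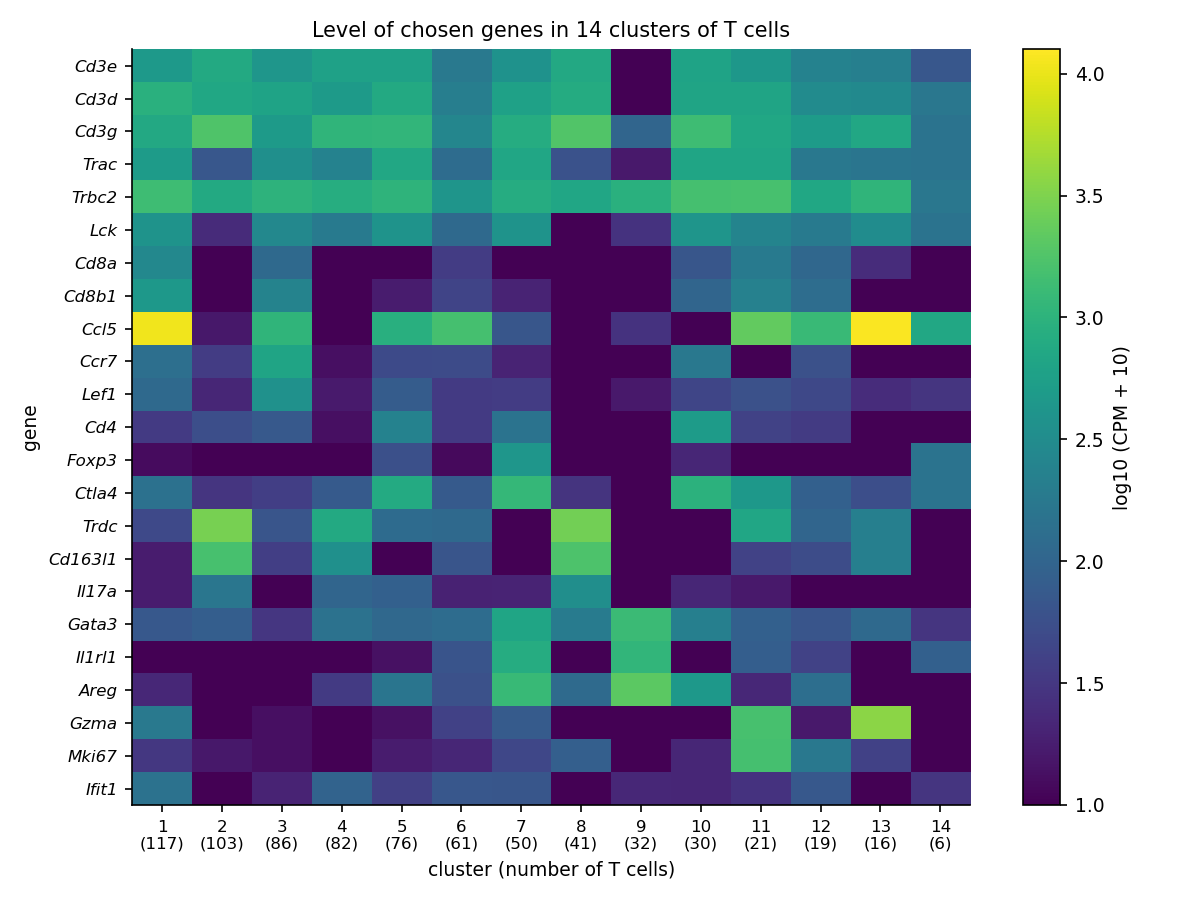
Level of 23 genes, as log10 of CPM plus 10, in the 14 clusters of T cells, with the number of cells under each cluster number. Cluster 9 is dark for Cd3e, Cd3d and Trac but bright for Gata3, Il1rl1 and Areg, and clusters 2 and 8 are bright for Trdc and Cd163l1 and dark for Lck.

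Proliferation was found in few T cells. Mki67, which marks cycling cells, was detected in 6, 0, 2, 8, 25 and 4 T cells of libraries 1 to 6, or 45 in all. None of the 13 cell cycle genes tested was called between library 5 and the others by the size rule. Over all genes 1.28% were called higher and 0.328% lower. A count of 0 among 13 genes is near these shares, so nothing is read from it. The cell cycle list summed to 2982, 542, 606, 2302, 1434 and 2086 CPM, so library 5 lay within the range of the others. In library 2, no Mki67 UMI in 40 cells allows up to 7.50% of cells with a detected UMI at this depth, which is no limit on cycling cells. The immediate early genes, which respond to dissociation as well as to signals, summed to 11590 CPM in library 5 and 11886 to 17410 CPM elsewhere. None of these 20 genes was called, which is also near the shares over all genes.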

How the data were processed

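Single-cell RNA was captured on the 10x platform from 6 aortic samples. The deposited matrix holds UMI counts for 55450 genes, filtered to called cells by the authors and with no normalization seen in its whole-number values. The submitters' processing notes name the build GRCm38 and the tools bcl2fastq 5.01, Seurat 3.1.1 and Cell Ranger 3.1.0, while the matrix was written by cellranger 6.1.2 per the file headers. Libraries held 51813179 to 96144873 UMIs. The 6 barcode suffixes match no label, so the planned comparison of genotypes by a count test was not made, and all results are descriptions.

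Counts were summed over cells and divided by the summed UMIs (CPM). A gene was called higher or lower at a ratio of 2 with 10 CPM added, at least 20 UMIs, and the same direction in each library with at least 20 cells on both sides. This is a rule of size and not a test. Intervals are exact at 95%. Limits for a count of 0 use 3 counts. Depth was equalized by thinning cells to 1000 UMIs, which left out 12 cells of library 5 and 1 other. No doublets were removed, and Scrublet calls served as an alternative. Clusters came from the Leiden method (1500 variable genes, 20 components, 15 neighbours, resolution 0.8) in scanpy 1.11.5 with igraph 0.11.9, and were named from fixed markers. Python 3.11.15, numpy 2.4.6, scipy 1.17.1 and pandas 2.3.3 were used.

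The members and gene lists were chosen with earlier results of these data known, and the comparison of Trdc-gated with Trac-gated cells was added after values were seen. Named genes are the genes of the rule and gates, up to 4 genes of each list by level and those without a UMI, the 10 called genes of largest ratio in each direction (outside the rule and lists against other barcodes), up to 5 leading genes of each cluster, up to 6 variable segments and defining markers of other cells. List members named beyond these were chosen after their values were seen. Other settings of the T cell rule, the added CPM, the minimum of UMIs and the libraries were tried. Some genes are not reported here.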

Additional observations from a re-analysis of the deposited data

Results flagged for a closer look

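Each of 16 values per library was examined for 1 library far from the other 5, meaning that its gap to the nearest, as a share of the whole range, was above Dixon's 95% critical value. For independent values, chance alone gives about 1 such library in 20 values examined. The values here are not independent, since Il17a belongs to the type 17 and innate-like list. Library 5 had also been set apart in the plan, so the flags are descriptions only. The share of T cells among kept barcodes stood out in library 5 at 3.07%, against 0.469% to 0.912% in the others. The summed interferon list in T cells stood out in the same library at 2581 CPM, against 508 to 1032 CPM. In library 2, Il17a was detected in 25% of T cells, or 10 of 40, against 4.88% to 11.6%, and the type 17 and innate-like list summed to 5355 CPM, against 1391 to 2574 CPM. Library 2 also held the highest share of Trdc-gated cells, 20 of 40, with Trdc at 1615 CPM, Cd163l1 at 1053 CPM and Blk at 346 CPM. The labels do not say which sample library 2 is.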

How the results depend on the processing

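Under 21 alternatives, 213 values stayed within 1.5 times the reported count, or within the interval of a share, and 23 moved further. No paired analysis was possible because no barcode could be tied to a sample, so the comparison of KD with CON and its replicate block were not run. With no C1q UMI allowed, 159 T cells remained in the other 5 libraries in place of 260. Thinning to 1000 UMIs gave CD8 shares of 14.7% (library 5) and 8.11% (others), CD4 shares of 6.20% and 3.47%, and Foxp3 shares of 1.92% and 1.54%. The added CPM set the counts of called genes most widely. With 2 CPM added, 299 genes were higher in CD8-gated cells, 518 in Trdc-gated and 797 in Trac-gated cells, and 319 were higher and 94 lower in library 5. With 50 CPM added, 29 were higher in CD8-gated, 83 in CD4-gated, 112 in Trdc-gated and 104 in Trac-gated cells, and 36 were higher and 9 lower in library 5. A minimum of 50 UMIs gave 60 genes higher in CD8-gated and 145 in CD4-gated cells, and no minimum gave 217 in CD8-gated cells.

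Leaving out libraries 1, 2, 3, 4 and 6 in turn gave 174 to 230 T cells in the other libraries, CD8 shares of 12.2% to 15.5%, CD4 shares of 11.7% to 14.1%, Foxp3 shares of 2.73% to 4.06% and Trdc shares of 20% to 28.4%. The counts were 126 to 161 genes higher in CD8-gated, 236 to 280 in CD4-gated, 306 to 358 in Trdc-gated and 402 to 547 in Trac-gated cells, and 129 to 205 higher and 38 to 51 lower in library 5. Without library 5, and with no library required to show the direction, they were 256, 250, 307 and 307 for the 4 gates. The cause of these changes was not tested. The 30 to 86 T cells in libraries 1 to 4 and 6 limit every value given per library, and cells without a co-receptor UMI cannot be assigned at this depth.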
